A study of Mus musculus with 8 samples.

Results

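Broad R-loop domains are long peaks of S9.6 signal centred inside protein-coding genes. Each peak has a single score per library, so whether the signal was continuous within a peak was not examined. R-loops were mapped by DNA-RNA immunoprecipitation sequencing (DRIP-seq), and the peaks of all samples had been merged into 28265 union peaks. A union peak was taken as a broad domain when it lay on an autosome, had a mean score over 30 across the 6 libraries, spanned 15 kb or more, and was assigned to a protein-coding gene shorter than 300 kb. Its centre had to lie inside that gene, over 5 kb from the transcription start site (TSS) and over 3 kb from the 3′ end. These criteria used length, position and overall level, and not the genotype label. The union peaks and the mean score drew on libraries of both genotypes, however, so signal in either genotype could bring a peak in. Membership is therefore not independent of genotype. The criteria were met by 1145 peaks in 881 genes, which is 4.44% of the 25815 autosomal peaks that passed the level filter. Another 13028 peaks met the same criteria but were shorter, and these shorter internal peaks served for comparison.

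The libraries came from cultured muscle stem cells (MuSCs), purified magnetically from limb and trunk muscle of adult mice. There were 3 S9.6 libraries of control MuSCs (Ctrl, genotype Pax7CreERT/Suv4-20h1WT) and 3 of MuSCs without Kmt5b (Kmt5b sKO, genotype Pax7CreERT/Suv4-20h1KO). Both genotypes carried Pax7CreERT, a tamoxifen-inducible Cre under control of Pax7, which is active in MuSCs in the muscle, so the deletion was directed to these cells. The 2 input libraries, 1 of each genotype, were not analysed here.

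An R-loop forms when a nascent transcript pairs with its template DNA strand and displaces the other strand. R-loops form over transcribed genes, are favoured where the displaced strand is rich in G, and are removed by RNase H enzymes and helicases. KMT5B (SUV4-20H1) converts monomethylated lysine 20 of histone H4 to the dimethylated form. The S9.6 antibody recognises the RNA:DNA hybrid, so its signal follows hybrids and is not a measure of mRNA.

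To show the sequence inside domains, a stretch of intron is given for the longest domain (Fam19a5), the domain with the most signal per kb (Plec), the 2 largest gains in Kmt5b sKO (Dglucy and Alcam) and the largest losses in 2 different genes (Ttn and Fndc1). Each is 150 bases of the GRCm38 (mm10) reference, read 5′ to 3′ on the strand of the gene, which is the strand an R-loop displaces. The window with the most runs of G (GGGG or longer) was taken among intronic windows free of soft-masked repeat bases, so these are the G-richest stretches and not typical ones. Capitals mark the runs of G.

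Fam19a5: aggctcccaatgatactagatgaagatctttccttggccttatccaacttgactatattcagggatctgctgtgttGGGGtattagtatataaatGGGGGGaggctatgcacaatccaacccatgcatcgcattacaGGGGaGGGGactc
Plec: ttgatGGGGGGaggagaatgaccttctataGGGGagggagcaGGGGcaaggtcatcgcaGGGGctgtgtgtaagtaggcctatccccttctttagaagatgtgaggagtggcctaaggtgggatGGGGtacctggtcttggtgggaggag
Dglucy: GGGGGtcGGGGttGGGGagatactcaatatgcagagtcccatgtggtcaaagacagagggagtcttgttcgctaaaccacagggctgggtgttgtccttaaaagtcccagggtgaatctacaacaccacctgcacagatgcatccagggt
Alcam: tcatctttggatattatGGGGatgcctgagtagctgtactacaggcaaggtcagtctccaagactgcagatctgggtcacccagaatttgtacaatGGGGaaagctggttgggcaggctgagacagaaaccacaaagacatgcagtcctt
Ttn: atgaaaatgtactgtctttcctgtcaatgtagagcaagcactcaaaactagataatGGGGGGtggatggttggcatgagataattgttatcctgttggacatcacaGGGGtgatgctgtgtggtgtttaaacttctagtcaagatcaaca
Fndc1: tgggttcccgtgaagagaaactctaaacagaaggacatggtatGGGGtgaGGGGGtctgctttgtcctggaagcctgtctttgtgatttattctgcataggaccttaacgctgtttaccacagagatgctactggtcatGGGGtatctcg

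The windows lie at chr15:87653071-87653220 (plus strand) in Fam19a5, chr15:76186961-76187110 (minus strand) in Plec, chr12:100876291-100876440 (plus strand) in Dglucy, chr16:52425341-52425490 (minus strand) in Alcam, chr2:76761411-76761560 (minus strand) in Ttn and chr17:7786101-7786250 (minus strand) in Fndc1. They hold 4, 5, 3, 2, 2 and 3 runs in that order. Over the whole of these domains the gene strand had 3.39 runs of G per kb in Fam19a5, 6.27 in Plec, 3.67 in Dglucy, 1.71 in Alcam, 1.90 in Ttn and 4.04 in Fndc1. A gained domain, Alcam, thus had the fewest runs of the set, and a lost domain, Fndc1, had more than either gained one.

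Runs of G did not set domains apart from shorter peaks. When the gene strand was divided into windows of 200 bases, GGGG occurred in 38.4% of windows inside domains, in 38.0% of those inside shorter internal peaks and in 34.9% of those in the same genes outside every union peak. The difference between the strands was clearer within genes. In 798 genes with enough sequence outside peaks, the GC skew of the gene strand (the excess of G over C as a share of both) had a median of 0.041 in domains and 0.017 outside, and it was higher in the domain in 586 genes (73.4%). Runs of C on the gene strand were rarer in the domain in 556 of these genes (69.7%), at a median of 2.31 per kb against 2.697, whereas runs of G were higher in the domain in 390 (48.9%). Higher skew and rarer runs of C were not particular to domains. Over all shorter internal peaks the median GC skew was 0.052, against 0.038 over all domains. Runs of C had a median of 2 per kb in those shorter peaks, against 2.37 in all domains. The GC content itself was lower in the domain in 489 genes (61.3%), with medians of 43.1% and 43.8%. Soft-masked repeat sequence was also lower in the domain in 544 genes (68.2%), with medians of 20.0% and 24.1%. Exons took up 10.2% of the domain bases of these genes and 7.79% of the bases outside peaks. Genes are not independent replicates, and these shares are given without a test.

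Domains had a median length of 22.4 kb, with quartiles of 18 and 29.6 kb and a longest domain of 145 kb. Together they covered 29.95 Mb, which is 25.9% of the length of all tested peaks, although they were 4.44% of their number. Domain genes had a median length of 67.8 kb, against 32.7 kb for the 6980 protein-coding genes under 300 kb that had any tested peak. Of those 6980 genes, 12.6% carried a domain.

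Domains covered a median of 44.1% of the length of their gene, with quartiles of 27.0% and 72.7%. In 374 genes (42.5%) they covered more than 50% of the gene, and in 16 they covered it entirely. When peaks of any length were included, the same genes were covered to a median of 65.5%, with quartiles of 48.3% and 84.4%. Coverage depends on gene length by construction, since a domain of minimum length covers little of a long gene.

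**Figure D1:**
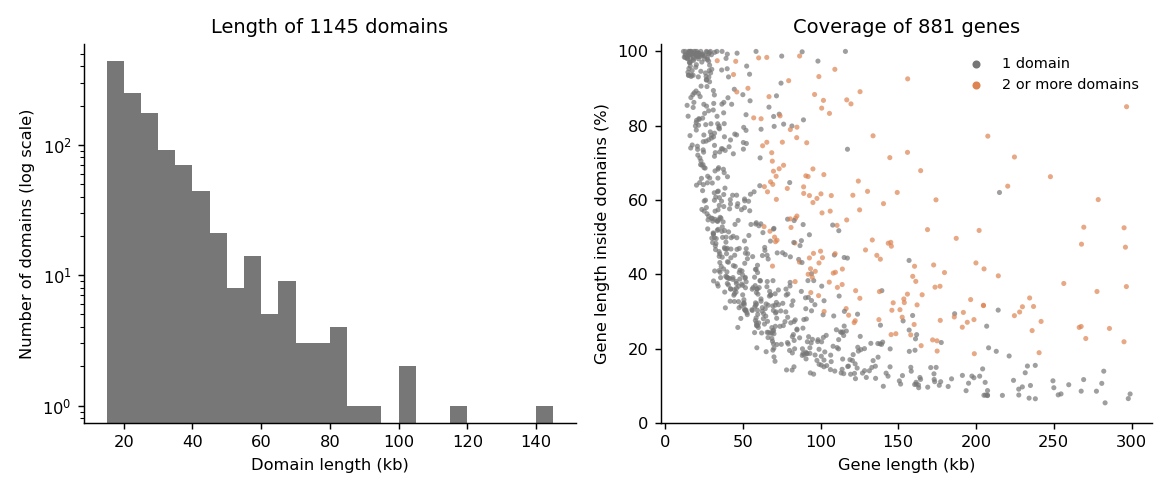
Left, number of domains (log scale) against domain length in kb, in bins of 5 kb. Right, share of each gene inside its domains (%) against gene length (kb), with 1 point a gene. Most domains lie near the minimum length, and genes of over 100 kb with high coverage mostly hold 2 or more domains (orange).

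When each gene was divided into 4 equal stretches from its TSS, 173, 273, 411 and 288 domain centres lay in them in that order. The limits on distance from both gene ends lower the first and last counts. A domain reached past the 3′ end of its gene in 340 cases (29.7%), by a median of 3.8 kb, and past the TSS in 31 (2.71%). In 16 cases it did both. No exon of the assigned gene was touched by 162 domains, which were thus wholly intronic by the GENCODE annotation. Another protein-coding gene was overlapped by 190 domains (16.6%), which in 162 cases ran on the opposite strand. The scores do not separate the strands, so signal in those domains cannot be divided between the genes.

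The 8 longest domains showed how far a union peak could extend. The domain of Fam19a5 (listed as Tafa5), which encodes a secreted chemokine-like protein, spanned 145 kb at chr15:87626000-87770999 and covered 62.0% of the gene. The domain of Rnf217, a RING-type ubiquitin ligase gene of 116.0 kb, spanned 119.8 kb at chr10:31489600-31609399 and covered the whole gene, past both ends. The domain of Kansl1l spanned 102.2 kb and covered 97.4% of the gene, that of Usp47, a deubiquitinase gene, spanned 90.4 kb and covered 99.9%, and that of Slc6a6, the taurine transporter gene, spanned 82.0 kb and covered 98.7%. These 3 domains are therefore gene-wide. The domains of Mbnl2, a splicing regulator, of Dpysl3, a cytoskeleton-binding protein, and of Myof, a membrane repair and myoblast fusion protein, spanned 101.4, 86.4 and 84.6 kb and covered 65.0%, 73.7% and 58.5% of their genes.

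A domain was called different between genotypes when the fold change exceeded 1.5 and the adjusted p was below 0.1, and none of these 8 was. Rnf217 had scores of 6941, 8900 and 6623 in Ctrl and 5690, 5932 and 6047 in Kmt5b sKO. Every Ctrl library lay above every Kmt5b sKO library, and the log2 fold change was −0.33 (SE 0.13, limma adjusted p = 0.036). Usp47 had scores of 5514, 7301 and 5566 in Ctrl and 4555, 4822 and 4715 in Kmt5b sKO. The groups were again apart, and the log2 fold change was −0.37 (SE 0.13, limma adjusted p = 0.018), too small a fold to be called. After centring, both domains were called lower, with log2 fold changes of −0.80 in Rnf217 and −0.84 in Usp47. Without any 1 Kmt5b sKO library the limma adjusted p under the deposited scaling was 0.16 to 0.22 in Rnf217 and 0.12 to 0.15 in Usp47. Fam19a5 had scores of 10923, 9202 and 8537 in Ctrl and 8477, 9350 and 9040 in Kmt5b sKO, which overlapped, with a change of −0.09 on the log2 scale (SE 0.14, limma adjusted p = 0.65). Here Ctrl replicate 1 was the highest library, and leaving it out gave a log2 fold change of 0.01. The other 5 had log2 fold changes from −0.11 (Kansl1l) to 0.19 (Dpysl3), with limma adjusted p from 0.26 to 0.88.

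In 16 genes the domain held the entire gene. The 6 taken from them by domain length were Rnf217, Bin1, Bcar1, Sh3glb1, Gpc1 and Mki67. Bin1 encodes a membrane-bending protein of the T-tubules of muscle, Bcar1 a focal adhesion scaffold, Sh3glb1 an endophilin of autophagy, Gpc1 a heparan sulfate proteoglycan and Mki67 the proliferation marker Ki-67. Their domains spanned 67.6, 40.4, 37.8, 35.0 and 34.2 kb. The domain of Gpc1 also overlapped Ankmy1, and that of Mki67 also overlapped Ptpre.

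Mki67 was the only one of these 6 that was called. Its scores were 2235, 2570 and 1977 in Ctrl and 1282, 1436 and 1441 in Kmt5b sKO, with no overlap. The score fell by 0.70 on the log2 scale (SE 0.13, limma adjusted p = 3.8e-06), and without Ctrl replicate 2 by 0.60 on that scale. The others had log2 fold changes from −0.33 to 0.17.

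Domains were also denser than shorter peaks. The score of a peak grows with its length, so levels were compared per kb. The mean score per kb over domains was 39.2, 48.3 and 38.5 in the Ctrl libraries (replicates 1, 2 and 3) and 40.3, 42.6 and 41.6 in those of Kmt5b sKO. Ctrl replicate 2 was the highest library and the other 2 Ctrl libraries were the lowest, so the genotypes overlapped. Ctrl averaged 42.0 ± 5.44 (SD, n = 3) and Kmt5b sKO 41.5 ± 1.16 (SD, n = 3), a ratio of 0.988, and 1.07 without Ctrl replicate 2. Over shorter internal peaks the same mean was 27.6, 33.0 and 27.9 in Ctrl and 37.5, 39.0 and 37.9 in Kmt5b sKO, with no overlap and a ratio of 1.29. As summed score over summed length, which gives short peaks less weight, it was 28.6, 35.2 and 29.0 in Ctrl and 35.1, 36.8 and 35.6 in Kmt5b sKO, a ratio of 1.16 with Ctrl replicate 2 just above the lowest Kmt5b sKO library. The spike-in scale of each library enters these values, as does the level filter, which some shorter internal peaks passed only through Kmt5b sKO. In bulk libraries, fewer cells with signal and less signal per cell cannot be told apart.

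Values taken within a library do not depend on that scale. Domains were 1.42-, 1.46- and 1.38-fold denser than shorter internal peaks in the Ctrl libraries, and 1.07-, 1.09- and 1.10-fold denser in the Kmt5b sKO libraries. By summed score over summed length these values were 1.44, 1.43 and 1.38 in Ctrl and 1.19, 1.20 and 1.21 in Kmt5b sKO. Domains held 32.2%, 32.6% and 31.5% of the summed score of tested peaks in Ctrl, and 27.2%, 27.4% and 27.6% in Kmt5b sKO. On each of these measures every Ctrl library lay above every Kmt5b sKO library, Ctrl replicate 2 included. The share averaged 32.1% ± 0.53 (SD, n = 3) for Ctrl and 27.4% ± 0.21 (SD, n = 3) for Kmt5b sKO. The level filter bears on these measures too. Among shorter internal peaks, 912 had a Ctrl mean of 30 or less and 95 a Kmt5b sKO mean of 30 or less. No domain had either. The part of the filter in these differences was not tested. No p is given for sums over domains, because the criteria were chosen with earlier results of these data known.

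**Figure D2:**
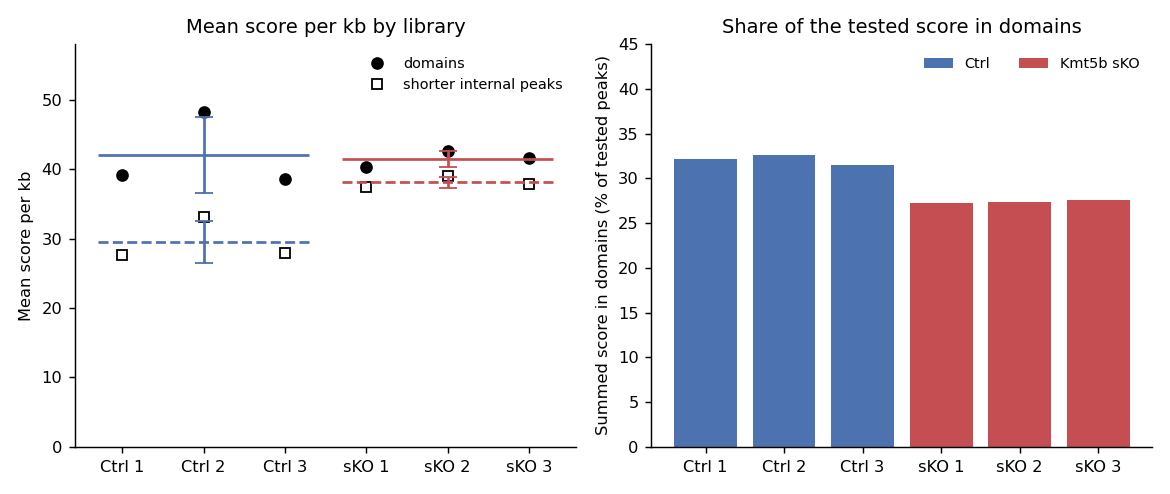
Left, mean score per kb in each library over domains (filled circles) and shorter internal peaks (open squares), with group means (lines) and SD (bars), blue for Ctrl and red for Kmt5b sKO. Right, share of the summed score of tested peaks that fell in domains (%), 1 bar a library. The share was 31.5% to 32.6% in Ctrl and 27.2% to 27.6% in Kmt5b sKO. Some shorter internal peaks passed the level filter only through Kmt5b sKO.

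The 6 domains with the highest score per kb lay in Plec, Arhgap22, Csf1, Ahnak, Ctnnb1 and Hjurp, with means over all libraries of 114.5, 97.2, 96.6, 91.6, 88.4 and 88.0 per kb. Plec encodes the cytoskeletal linker plectin, Ahnak a giant membrane scaffold, Ctnnb1 the Wnt effector beta-catenin, Hjurp the chaperone that loads the centromeric histone CENP-A, Arhgap22 a GTPase-activating protein and Csf1 the growth factor of macrophages. The Plec domain, at chr15:76174000-76206999, was also the domain richest in GC, at 59.4%. Its score per kb was 100.2, 124.5 and 95.4 in Ctrl and 117.9, 125.3 and 124.0 in Kmt5b sKO, so that Ctrl replicate 2 lay among the Kmt5b sKO libraries. The domains of Hjurp and Ctnnb1 overlapped other coding genes (Mroh2a and Trpm8, and Ulk4). Over all domains the score per kb had a median of 39.6, with quartiles of 34.9 and 45.9.

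Of the 6 densest domains, Csf1 was called. Its domain covered the entire gene at chr3:107734200-107760599. Scores were 1954, 1934 and 1708 in Ctrl and 2890, 3547 and 3270 in Kmt5b sKO, with no overlap. The score rose by 0.79 on the log2 scale (SE 0.13, limma adjusted p = 1.2e-07). After centring each library on its median tested peak this was 0.33, under the fold change threshold. The libraries of Arhgap22 also did not overlap, at 4003, 3754 and 3272 in Ctrl and 4715, 4905 and 5130 in Kmt5b sKO (log2 fold change 0.42, SE 0.13, limma adjusted p = 0.0062), which centring turned to −0.04.

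Few domains were called between genotypes. Of 1145 domains, 21 (1.83%) were called higher in Kmt5b sKO, against 32.9% of all tested peaks and 22.9% of shorter internal peaks. Another 24 (2.10%) were called lower, against 0.883% of all tested peaks and 1.07% of shorter internal peaks. The shorter internal peaks closest to domains in length came nearer. Of the 1451 of 8 to 15 kb, 3.51% were called higher and 1.03% lower. Of the 2363 of 4 to 8 kb, 7.66% were called higher and 0.889% lower. The scarcity of gains was thus not particular to domains. The median log2 fold change was −0.03 over domains, 0.26 over shorter internal peaks and 0.35 over all tested peaks. The level filter bears on these comparisons, because 912 of the 13028 shorter internal peaks had a Ctrl mean of 30 or less and passed only through Kmt5b sKO, whereas the lowest mean score of a domain was 366.5. Among the 4910 shorter internal peaks with a mean score over 100, a minimum chosen after seeing the data, 10.2% were called higher and 0.652% lower, and the median change was 0.15 on the log2 scale. A positive fold change was found in 515 domains (44.98%) and in 76.1% of shorter internal peaks. The fold change stayed within 1.5-fold in 1100 domains (96.1%). The 3 Kmt5b sKO libraries all lay above the 3 Ctrl libraries in 173 domains (15.1%), against 41.5% of all tested peaks, and all lay below in 241 (21.0%), against 3.81%.

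The absolute counts depended on Ctrl replicate 2 and on the scaling. Ctrl replicate 2 was the highest Ctrl library in 1107 of the 1145 domains, and without it 37 domains were called higher and 12 lower, and the median change of domains was 0.07. When all libraries were scaled to 1 common total, 8 domains were higher and 94 lower (7.84% of calls higher, against 46.7% as deposited). After centring each library on its median tested peak, 3 were higher and 394 lower (0.756% higher), and after quantile normalization 16 were higher and 32 lower (33.3% higher). These scalings moved the median of all tested peaks from 0.35 to 0.15, −0.11 and −0.01. Relative to that median, domains stood at −0.38 as deposited, −0.38 with the same total, −0.39 after centring and −0.06 after quantile normalization. In each of the 4 scalings the median of domains was thus below that of all tested peaks, but after quantile normalization shorter internal peaks, at −0.11, were lower than domains, at −0.07.

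Length within the set had a weak relation to the genotype comparison, with a Spearman coefficient of length with the fold change of −0.13 across the 1145 domains. The median log2 fold change was −0.01 in 450 domains of 15 to 20 kb, −0.03 in 421 of 20 to 30 kb, −0.10 in 222 of 30 to 50 kb and −0.05 in 52 of 50 kb or more. Among shorter internal peaks it went from 0.77 in 1185 peaks of up to 1 kb, through 0.44, 0.23 and 0.14, to 0.05 in 1451 peaks of 8 to 15 kb. The first values of this series are in part set by the level filter, since 59.2% of the peaks of up to 1 kb and 5.80% of those of 1 to 2 kb had a Ctrl mean of 30 or less. No peak over 4 kb did. The 2 domains nearest to the length limit, of 15.2 kb in Ogdh and Zmynd11, had log2 fold changes of 0.27 and −0.02. Scores were 506, 680 and 511 in Ctrl and 743, 669 and 622 in Kmt5b sKO for Ogdh, and 747, 747 and 623 against 704, 748 and 636 for Zmynd11, with overlap in both. The 2 peaks just under it, of 15 kb in Sdcbp and Zim1, had 0.33 and 0.37. Their scores were 379, 515 and 453 in Ctrl and 556, 599 and 532 in Kmt5b sKO for Sdcbp, and 552, 683 and 589 against 755, 821 and 769 for Zim1, without overlap. The medians of the classes on either side of the limit were closer, at 0.05 below it and −0.01 above it.

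Shorter internal peaks were also set beside domains of a similar mean score per kb over both genotypes. Shorter internal peaks with a score per kb inside the quartiles of domains (34.9 to 45.9) numbered 3507 and had a median log2 fold change of 0.50, with 39.98% called higher. The 573 domains in that range had a median of −0.01, with 2.09% called higher. The range was set on the mean of both genotypes, which favours shorter peaks that are high in Kmt5b sKO. The median score per kb of these shorter peaks was 31.9 in Ctrl and 45.4 in Kmt5b sKO. For these domains it was 39.8 and 39.5, so levels were not matched within a genotype and the contrast is in part set by the choice. Shorter internal peaks in the same genes as domains had a median of 0.14 (2932 peaks, 12.4% called higher), and those in other genes had 0.30 (10096 peaks, 25.9% called higher).

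Among domains the genotype difference varied with base composition. In 4 groups of rising GC content, divided at 40.4%, 43.3% and 47.2%, the median log2 fold change was −0.09, −0.06, −0.01 and 0.06. These groups held 1, 2, 7 and 11 domains called higher and 3, 12, 8 and 1 called lower. Across the 1145 domains the Spearman coefficient of the fold change with GC content was 0.25, and it was between 0.22 and 0.28 when any 1 library was left out. Over shorter internal peaks it was −0.10. With runs of G it was 0.22 in domains, with score per kb 0.21 and with GC skew −0.03. Domains share the libraries and their scaling, so these coefficients are descriptions.

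The same relation was seen library by library. The Spearman coefficient of score per kb with GC content over domains was 0.17, 0.06 and 0.08 in Ctrl and 0.27, 0.28 and 0.28 in Kmt5b sKO. All Kmt5b sKO libraries lay above all Ctrl libraries in this respect. Over shorter internal peaks the coefficients lay between −0.09 and 0.03. GC content also affects amplification and alignment of a library, and its part in this difference was not tested.

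**Figure D3:**
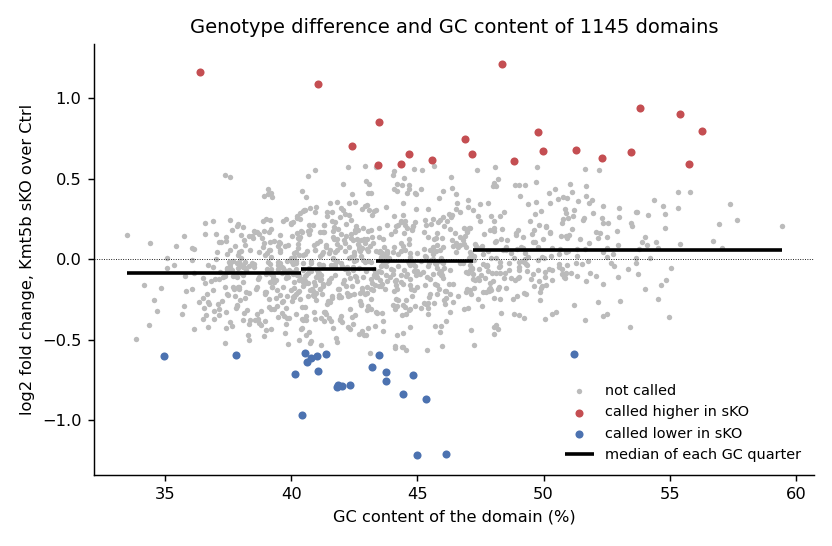
Fitted log2 fold change (Kmt5b sKO over Ctrl) of each domain against its GC content (%), with called domains in colour and the median of each of the 4 GC groups as black lines. Domains called higher (red) lie mostly at higher GC content than domains called lower (blue), and the group medians go from −0.09 to 0.06.

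The 21 domains called higher lay in 20 genes, and none of them overlapped between genotypes. Of all 8484 tested peaks called higher, 7723 did not overlap either. They had a median GC content of 48.4% and a median length of 22.4 kb. The largest gain was in Dglucy, the D-glutamate cyclase gene, at chr12:100870200-100888199. Its scores were 388, 400 and 390 in Ctrl and 875, 849 and 1025 in Kmt5b sKO. The Ctrl libraries were nearly equal and the lowest Kmt5b sKO library was more than 2-fold above them (log2 fold change 1.22, SE 0.14, limma adjusted p = 1.3e-15).

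In Alcam, which encodes a cell adhesion molecule (CD166), the domain at chr16:52419200-52434399 was wholly intronic. Its scores were 391, 331 and 322 in Ctrl and 667, 839 and 840 in Kmt5b sKO. It rose by 1.16 on the log2 scale (SE 0.14, limma adjusted p = 7.2e-14), and its GC content of 36.4% was the lowest of the 21. In Alox5, the gene of the leukotriene-forming 5-lipoxygenase, scores were 418, 353 and 388 in Ctrl and 824, 751 and 897 in Kmt5b sKO, a rise of 1.09 on the log2 scale (SE 0.14, limma adjusted p = 2.2e-12). Dglucy, Alcam and Alox5 were the 3 gains that were still called after centring, with log2 fold changes of 0.75, 0.70 and 0.63.

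In Epha2, an ephrin receptor tyrosine kinase gene, the domain covered 93.1% of the gene, and scores were 1008, 1058 and 851 in Ctrl and 1771, 1815 and 1994 in Kmt5b sKO (log2 fold change 0.94, SE 0.13, limma adjusted p = 2.4e-10). In Fhl2, a LIM-domain cofactor gene, scores were 517, 577 and 509 in Ctrl and 977, 989 and 924 in Kmt5b sKO (log2 fold change 0.85, SE 0.14, limma adjusted p = 4.9e-08). After centring both domains fell short of the fold change threshold, at 0.47 in Epha2 and 0.39 in Fhl2.

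The 24 domains called lower lay in 19 genes, and 6 of them lay in Ttn. Their median GC content was 41.9%, and Ctrl replicate 2 was the highest library in all 24. Without it, 12 of the 24 were called, and no other domain was called lower. The largest loss was in Ttn, the gene of the sarcomeric spring titin, at chr2:76736400-76761599. Its scores were 1295, 2062 and 1451 in Ctrl and 608, 745 and 676 in Kmt5b sKO. The lowest Ctrl library was above the highest Kmt5b sKO library, and the score fell by 1.22 on the log2 scale (SE 0.13, limma adjusted p = 4.6e-17), with a log2 fold change of −1.02 when Ctrl replicate 2 was left out.

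Fndc1, a fibronectin type III domain protein gene, had a domain at chr17:7785800-7802399 with scores of 435, 738 and 535 in Ctrl and 277, 204 and 243 in Kmt5b sKO (log2 fold change −1.21, SE 0.15, limma adjusted p = 1.0e-13). Eya4, a transcriptional cofactor and phosphatase gene, had a domain over its 5′ part at chr10:23323600-23350999, with scores of 1633, 2231 and 1667 in Ctrl and 921, 950 and 922 in Kmt5b sKO (log2 fold change −0.97, SE 0.13, limma adjusted p = 5.6e-11). St8sia2, the gene of a sialyltransferase that adds polysialic acid to NCAM, had a domain of 68.2 kb over 91.5% of the gene, with scores of 5293, 7049 and 5144 in Ctrl and 2983, 3202 and 3291 in Kmt5b sKO (log2 fold change −0.87, SE 0.13, limma adjusted p = 6.3e-09). Without Ctrl replicate 2 the log2 fold changes of these 3 domains were −1.01, −0.83 and −0.73.

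**Figure D4:**
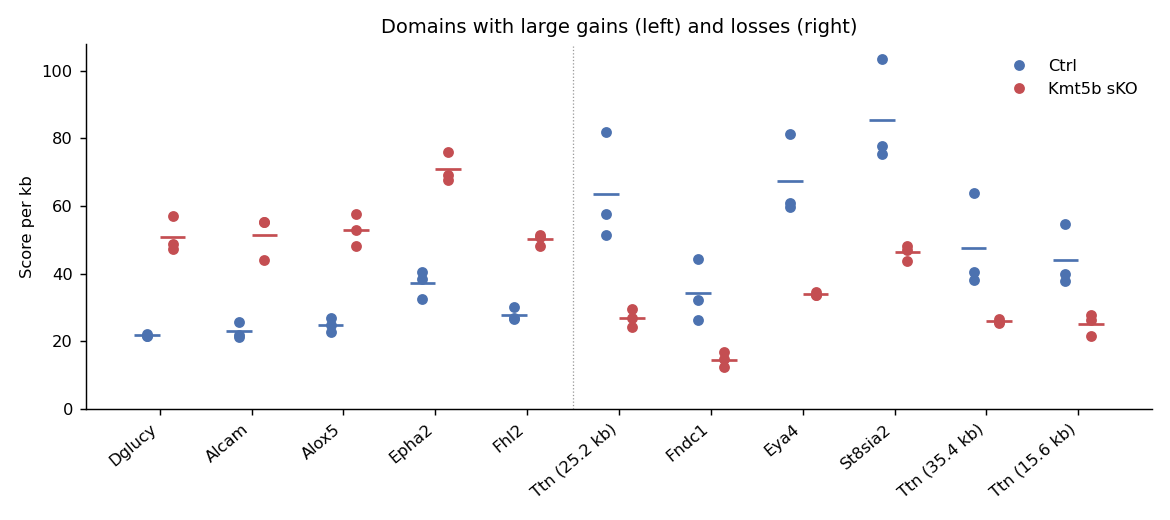
Score per kb in each library (points) with the mean of each genotype (lines) for 5 of the 6 domains with the largest gains (left) and the 6 with the largest losses (right), blue for Ctrl and red for Kmt5b sKO. The genotypes do not overlap in any of these domains, which the choice required, since only called domains with separated libraries were eligible. The highest Ctrl point of each loss is Ctrl replicate 2.

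The other losses included genes of the contractile apparatus and of cell division. Pdlim3, a Z-disc LIM protein gene, Sntb1, a syntrophin of the dystrophin complex, and Ccdc141, a neighbour of Ttn, had log2 fold changes of −0.78, −0.72 and −0.64. None of these 3 was called without Ctrl replicate 2, where they were −0.57, −0.38 and −0.42. Mki67, Cdca2, which encodes a chromosome-bound phosphatase regulator of mitosis, and Rad21, a cohesin subunit, had −0.70, −0.70 and −0.61, and without Ctrl replicate 2 they had −0.60, −0.62 and −0.46, the last no longer called. These genes, apart from Mki67, were picked out after their values were seen. With the variance of each peak taken from its own replicates, a setting chosen after seeing the data, 21 domains were called higher and 19 lower, and the losses no longer called were Pdlim3, Sntb1, Ccdc141, Fads3 and 1 of the Ttn domains.

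Other tested peaks of the genes with called domains are given for comparison. In genes with a domain called higher, these 94 peaks had a median log2 fold change of 0.62, and 52 of them (55.3%) were called higher, against 32.9% of all tested peaks, and 0 lower. In genes with a domain called lower, the 103 other peaks had a median of −0.29 and quartiles of −0.49 and 0.14. Of these, 17 (16.5%) were called lower, against 0.883% of all tested peaks, 4 were called higher and the others were not called. Neighbouring peaks are not independent of the domain they flank, and these values are given without a test.

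Several domains in 1 gene were common. A single domain was present in 700 genes, 2 in 126, 3 in 38 and 4 or more in 17. Of the 181 genes with more than 1 domain, 127 (70.2%) had fold changes of 1 sign in all of them. Between the 264 pairs of neighbouring domains of a gene the gap had a median of 11.0 kb and ranged from 0.2 to 122.8 kb. It was 5 kb or less in 87 pairs and 1 kb or less in 43, so some of these pairs are stretches that the peak calling only just kept apart. Neighbours had the same sign in 204 pairs (77.3%), and their log2 fold changes differed by a median of 0.15.

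The genes with most domains were Ttn with 8, Ncam1 and Chchd3 with 6, and Eya4 and Trio with 5. Ncam1 encodes the neural cell adhesion molecule, Chchd3 a subunit of the mitochondrial contact site complex and Trio a guanine nucleotide exchange factor of small GTPases. Their domains covered 60.1%, 85.1%, 52.7%, 66.3% and 52.5% of the gene in the order Ttn, Ncam1, Chchd3, Eya4 and Trio.

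The 8 domains of Ttn were not lowered evenly. Their log2 fold changes ran from −1.22 to −0.06, with a median of −0.78. The smallest change was in the middle of the gene, 127.1 kb from the TSS, where scores were 519, 700 and 560 in Ctrl and 575, 522 and 597 in Kmt5b sKO and overlapped. The domain nearest to the TSS, at 12.5 kb, had scores of 588, 851 and 623 in Ctrl and 336, 409 and 432 in Kmt5b sKO (log2 fold change −0.80). The domain at the 3′ end, at 267.2 kb, had 1352, 2258 and 1437 in Ctrl and 906, 942 and 897 in Kmt5b sKO (log2 fold change −0.84). Losses were thus found towards both ends of the gene.

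The other genes of the set differed among themselves. All 6 domains of Chchd3 had negative log2 fold changes, from −0.59 to −0.24, and 1 was called lower, but not without Ctrl replicate 2. All 5 domains of Eya4 were also negative, from −0.97 to −0.23. The longest of them, of 80.8 kb and wholly intronic, had scores of 5542, 7251 and 5644 in Ctrl and 4302, 4358 and 4254 in Kmt5b sKO, without overlap (log2 fold change −0.50, limma adjusted p = 0.0011). The domains of Ncam1 ranged from −0.28 to 0.08 and those of Trio from −0.12 to 0.24, and none was called.

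**Figure D5:**
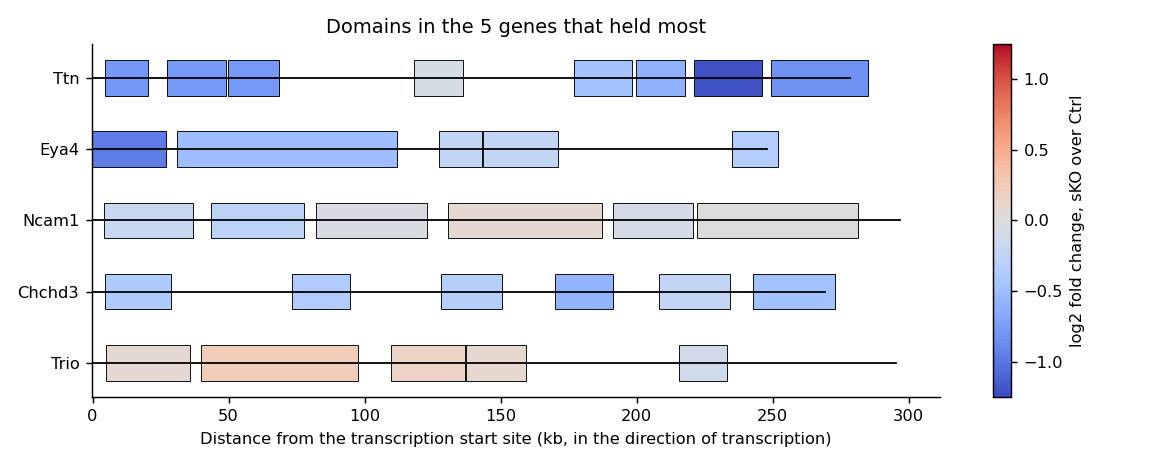
Position of each domain (boxes) along the 5 genes with most domains, as distance from the TSS in kb in the direction of transcription, with the gene as a line and the log2 fold change (Kmt5b sKO over Ctrl) as colour. The 8 domains of Ttn range from −1.22 to −0.06, those of Chchd3 and Eya4 are all below 0, and those of Ncam1 and Trio lie near 0.

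To see which kinds of genes carried domains, 11 lists of genes were used, with 263 genes in all. A tested peak was found in 204 of them and a domain in 61 (29.9%), against 12.6% of all coding genes under 300 kb with a tested peak. The lists hold genes known to be active in myoblasts or other cells and were assembled with results of these data known, so this share is a description. Nor were these shares matched for gene length. Domain genes had a median of 67.8 kb, against 32.7 kb for all coding genes under 300 kb with a tested peak. Their 77 domains had a median log2 fold change of 0.05, with 4 called higher and 8 lower.

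Among these lists, signalling genes carried domains most often. Of 22 genes of TGF-beta, Wnt, Hippo and growth factor signalling with a tested peak, 13 had a domain (59.1%), among them Hmga2, a chromatin architectural protein, Ctnnb1 and Igf1r, the IGF-1 receptor. Hmga2 had a domain of 52.2 kb with scores of 2244, 2247 and 2040 in Ctrl and 3385, 3153 and 3276 in Kmt5b sKO. The groups did not overlap, and the log2 fold change was 0.59 (SE 0.13, limma adjusted p = 1.0e-04), or 0.12 after centring. It was 1 of 2 domains of this list called higher. The other was in Smad7, the inhibitory Smad (log2 fold change 0.68), which is named after its value was seen.

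Structural genes followed. Domains were found in 6 of 15 other extracellular matrix genes, including Hspg2 (perlecan), Lama5 (a laminin chain) and Sparc (osteonectin), and in 8 of 21 genes of the non-muscle actin and myosin cytoskeleton, including Myh9 (non-muscle myosin heavy chain), Sptbn1 (spectrin) and Plec. They were found in 7 of 22 genes of integrins and focal adhesion, including Tns3 (tensin), Itga6 (an integrin chain) and Flnc (filamin C), and in 2 of 7 collagen genes, Col5a1 and Col3a1. In these 4 lists the domain of Fndc1 was called lower and no other domain was called. Myh9, with a domain of 65.2 kb over 79.9% of the gene, had a log2 fold change of 0.04.

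Among sarcomere and excitation-contraction genes, 3 of 16 had domains. These were Ttn, Neb (nebulin) and Ryr1 (the ryanodine receptor), with 11 domains in all and 6 called lower, each of them in Ttn. A Neb domain of 50.8 kb had scores of 1532, 2410 and 1775 in Ctrl and 1657, 1830 and 1655 in Kmt5b sKO, which overlapped (log2 fold change −0.13, limma adjusted p = 0.46). A Ryr1 domain of 16.2 kb had a log2 fold change of 0.30 (limma adjusted p = 0.073). Not every domain of Neb and Ryr1 is given here. Neither Neb nor Ryr1 had a domain called lower.

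Of the regulators of MuSCs and myogenesis, 5 of 20 had a domain, namely Tcf12 (an E protein), Notch2 (a Notch receptor), Met (the HGF receptor), Pax7 and Rbpj, and none was called. Among cell cycle and DNA damage response genes 4 of 19 had a domain, including Mki67, Cenpe (a kinetochore motor) and Rb1 (the retinoblastoma protein), and Mki67 was the 1 called, lower. Among chromatin regulators 5 of 26 had one, including Arid1a (a BAF subunit) and Kmt2a (a histone H3 lysine 4 methyltransferase), neither of which was called. RNA binding and splicing genes had a domain in 5 of 20 cases, including Son, Srrm2 and Tra2a, and genes of translation and metabolism in 3 of 16, namely Pkm, Eif4g1 and Eif4g2, with none called in either list.

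Markers of cell identity bear on the label only weakly, since S9.6 signal is not expression. Of 11 markers of MuSCs and myoblasts, 5 had a tested peak (Pax7, Myod1, Des, Itga7 and Sdc4), and Pax7 carried a domain. Of 6 genes listed as fibroblast and fibro-adipogenic markers 1 had a tested peak, of 5 endothelial markers 2 (Pecam1 and Tek) and of 5 macrophage and leukocyte markers 0. None of these carried a domain. The 1 gene of the fibroblast list was Tcf4, matched by its symbol, which encodes an E protein and is not specific to fibroblasts. Kmt5b itself carried 1 peak of 10.4 kb, too short to be a domain, with scores of 412, 658 and 420 in Ctrl and 440, 449 and 484 in Kmt5b sKO, which overlapped. This peak is no check of the deletion, since it was not set against the deleted exons.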

How the data were processed

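DRIP-seq was performed with the S9.6 antibody on MuSCs, with 3 Ctrl and 3 Kmt5b sKO libraries grouped by their labels. The authors aligned reads with STAR 2.7.3a to mm10 (GRCm38), removed duplicates with Picard 2.21.7, called peaks against input with Epic2 0.0.41 (listed as SICER in the submitters' processing notes), left out blacklisted regions and unified the peaks of all samples. The deposited score is the signal over a union peak, normalized by the authors to reads of a Drosophila spike-in and rounded, so it was treated as a score and not as a read count. The reads behind it were not used here, so its counting error is unknown. Distances to the TSS are in base pairs as deposited.

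Autosomal peaks with a mean score over 30 were tested together with limma 3.58.1 in R 4.3.3 (eBayes with trend) on log2(score + 1), two-sided, with genotype as the term and Benjamini-Hochberg adjustment over 25815 peaks. Calls required a fold change over 1.5 with an adjusted p below 0.1. Fold changes are on the log2(score + 1) scale, which understates changes of low peaks. The prior degrees of freedom were infinite, so each variance came from its trend with level.

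Gene limits and distances came from the deposited table, and 8483 of 8490 gene identifiers were found in GENCODE vM21, which gave symbols and exons. Peak limits are printed as deposited, and starts may lie 1 base before the first base shown by a browser. Sequence came from the GRCm38 reference of RefSeq. Columns of scores without a sample numbered 0. Genes were named by rule (the 8 longest domains, the 6 densest, among called domains with separated libraries the 6 strongest gains and 6 strongest losses, the 5 genes with most domains, the 6 most covered genes, those nearest to the length limit and at most 3 a gene list), with exceptions stated. Results for 1 gene among the gains are not reported here. The members, lists and rules were chosen with earlier results of these data known. Alternatives were other pseudocounts, level filters, thresholds, scalings and variance models, a replicate block and leaving out each library. Python 3.11.15, numpy 2.4.6, pandas 2.3.3 and matplotlib 3.10.9 were used.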

Additional observations from a re-analysis of the deposited data

How the results depend on the processing

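Pseudocounts of 0.5 and 5, level filters, variance models and quantile normalization kept the counts of called domains within 1.5-fold. Under the replicate block 21 domains were higher and 24 lower, and their median change was −0.03. Libraries with the same replicate number share only that number (correlations of their deviations −0.009, 0.011 and −0.027). Scaling to the same total gave 8 higher and 94 lower with a median of −0.24, and centring gave 3 higher and 394 lower with a median of −0.49 and a ratio of mean score per kb of 0.719. Without a fold change minimum 148 were higher and 189 lower, and over 2-fold 3 and 2. A minimum length of 10 kb gave 2015 domains in 1410 genes with 55 called higher, and 20 kb gave 695 in 570 genes with 12 called higher. Leaving out 1 library gave 17 to 37 higher, 12 to 35 lower, medians from −0.09 to 0.07 and ratios from 0.949 to 1.07, with the extremes of 37 and 12 without Ctrl replicate 2.

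Some log2 fold changes changed sign. After centring they were −0.43 in Mbnl2, −0.28 in Dpysl3, −0.43 in Myof, −0.26 in Plec, −0.041 in Arhgap22 and −0.41 in Ahnak. Leaving out 1 library gave ranges that crossed 0, from −0.16 to 0.014 in Fam19a5, −0.042 to 0.14 in Mbnl2, −0.025 to 0.13 in Myof, −0.10 to 0.060 in Slc6a6, −0.036 to 0.21 in Ahnak and −0.086 to 0.030 in Hjurp. The cause was not tested. Of 234 values for 26 domains under 9 settings, 215 kept their direction and side of the threshold. With 3 libraries a genotype and unknown read depth, small differences could not be resolved, and the absolute level rests on the spike-in scale.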

Other observations

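The criteria were also applied to the X chromosome, where 7 regions met them. Their mean score per kb was 35.0, 46.3 and 34.8 in Ctrl and 37.3, 38.0 and 39.4 in Kmt5b sKO. The ratio was 0.988, or 1.09 without Ctrl replicate 2, which was the highest library. In 0 of the 7 did every Kmt5b sKO library lie above every Ctrl library, against 15.1% of autosomal domains and 41.5% of all tested peaks. So few regions cannot be set apart from autosomal domains by this count.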
